A study of Mus musculus with 10 samples.

Results

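Integrins, the cell's main receptors for extracellular matrix, and laminins, the trimeric glycoproteins of the basement membrane, were followed while mouse embryonic fibroblasts were driven towards pluripotency. The members were all genes whose symbol names an integrin alpha or beta chain or a laminin alpha, beta or gamma chain. They numbered 37 of the 54752 genes in the files, with 18 integrin alpha chains, 8 integrin beta chains and 11 laminin chains. The primary fibroblasts came from mid-gestation embryos of 129S4/SvJaeJ females and males carrying an Oct4-GFP transgene on a CBA/CaJ × C57BL/6J background, and were at passage 2. Every library carried the same treatment first, a retroviral infection of 48 hours with Jdp2, Sall4, Esrrb and Glis1, so that D0 is already infected and no uninfected fibroblasts were among the groups. The groups are 0, 1, 3, 5 and 7 days in the induction medium iCD3, called D0, D1, D3, D5 and D7, with 2 libraries each. The series describes 2 independent experiments. The sources used here do not tell which embryos or cultures each library came from, and if they shared one, the spread behind the p-values is technical.

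Each integrin is a pair of 1 alpha and 1 beta chain that spans the membrane, and the pairing sets which matrix protein it binds. The beta1 chain pairs with most alpha chains, while alphaV also pairs with beta3, beta5, beta6 and beta8. On the inside, talin and kindlin hold the beta tail in an active form and focal adhesion proteins link it to actin. Laminins are trimers of an alpha, a beta and a gamma chain, and the alpha chain carries most of the sites that integrins bind. In the early mouse embryo the laminins of the first basement membranes contain the alpha1 and alpha5 chains, and integrin alpha6 with beta1 is a known laminin receptor of pluripotent cells.

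Gene counts summed to 2176457 to 4335931 in the replicate 1 libraries and to 1329377 to 1492105 in the replicate 2 libraries. On unscaled totals, a count of 3 was worth 0.692 to 1.38 CPM (counts scaled to library size) in the former and 2.01 to 2.26 CPM in the latter. The CPM values that follow use TMM-scaled totals, on which the same count is worth slightly more or less. All 10 fibroblast markers had counts at D0, and their summed level was 11571 to 12846 CPM there and 552 to 850 CPM at D7. The 8 pluripotent cell markers summed to 0.979 to 7.48 CPM at D0, with Tdgf1, Dnmt3l and Dppa4 at 0, and to 1103 to 1416 CPM at D7. The smooth muscle markers, which fibroblasts with stress fibres also express, summed to 7544 to 8143 CPM at D0 and 39.2 to 143 CPM at D7. These are bulk cultures, in which fewer cells of a type and less RNA per cell cannot be told apart. The part of these shifts in cell makeup in the results that follow was not tested.

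By D7, integrin RNA had lost most of its fibroblast level, while the summed laminin level was close to that of D0. Lama5 was the largest laminin alpha chain on both days, while Lama1 rose and Lama2 and Lama4 fell. The 26 integrin genes summed to 1357 and 1362 TPM (a transcript abundance scaled by transcript length and library size) in the D0 libraries and to 374 and 347 TPM at D7. The 11 laminin genes summed to 459 and 527 TPM at D0 and to 521 and 463 TPM at D7. Between these days their sum was lower, at 447 and 456 TPM at D1, 388 and 448 at D3 and 384 and 308 at D5. Of the 37 members, 25 had enough counts to be tested. At an adjusted p under 0.05 in edgeR's quasi-likelihood test, 10 were lower at D7 than at D0 and 2 were higher, with a median log2 change of -0.94 over the tested members against 0.06 over all 12752 genes tested. Among all genes tested, 8.71% were called lower and 9.15% higher. The lower genes were the integrin chains Itga1, Itga3, Itga5, Itga11, Itgav, Itgb1, Itgb3 and Itgb5 and the laminin chains Lama2 and Lama4. Itgb7 and Lama1 were higher. Of the 12 calls, 6 (Itga3, Itga11, Itgb1, Lama1, Lama2 and Lama4) held whichever library was left out. With the replicate number as a block the higher calls numbered 4, with Itga6 among the added genes. The shares of all genes tested, here and below, are those of the edgeR fit over all libraries with TMM scaling, the count filter and no block. The shares of the block and of the other alternative fits are not given. Counts of calls from those fits have no share to stand beside.

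**Figure D1:**
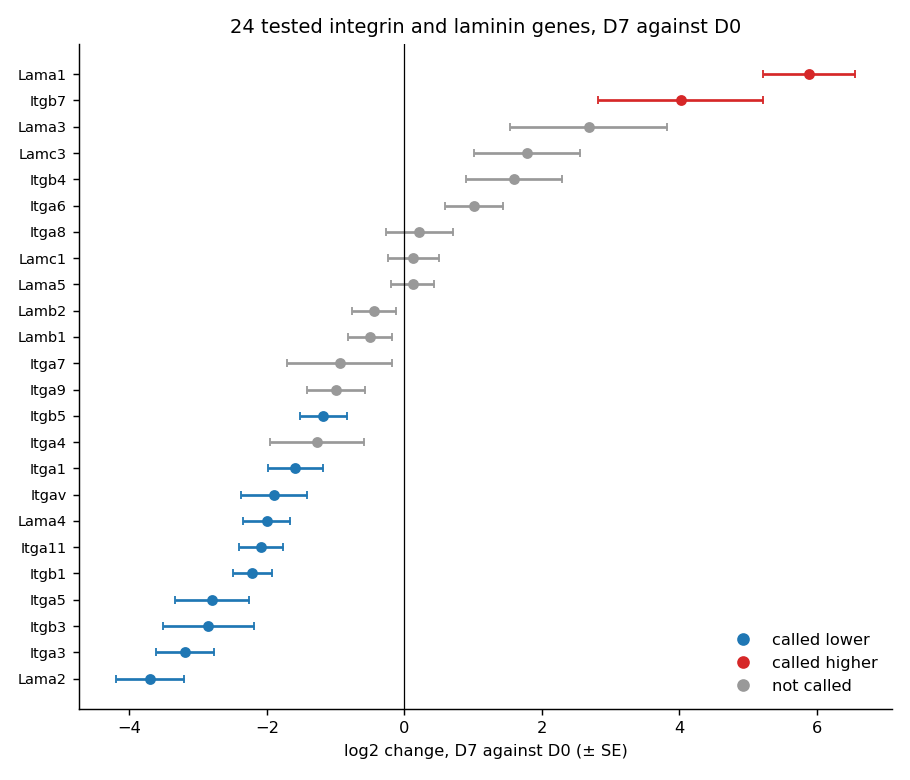
Log2 change between D7 and D0 (horizontal axis, point with its standard error) of 24 of the 25 tested members, ordered by size, with called genes in colour. Lama1 at 5.89 and Itgb7 at 4.02 lie farthest to the right, and Lama2 at -3.70 and Itga3 at -3.19 farthest to the left.

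The stretch just before the start of transcription is shown for 5 members called at D7 against D0, to set the DNA of the most abundant integrin chain beside that of other chains that moved. Each line gives the 250 bases upstream of a RefSeq start on GRCm38.p6, read 5′ to 3′ on the gene's own strand, with CG dinucleotides in capitals.
Itgb1: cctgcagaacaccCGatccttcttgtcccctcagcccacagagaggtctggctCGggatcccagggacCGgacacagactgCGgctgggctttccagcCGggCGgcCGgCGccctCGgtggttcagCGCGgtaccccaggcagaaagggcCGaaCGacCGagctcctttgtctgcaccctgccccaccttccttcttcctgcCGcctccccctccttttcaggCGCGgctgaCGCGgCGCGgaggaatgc
Itga3: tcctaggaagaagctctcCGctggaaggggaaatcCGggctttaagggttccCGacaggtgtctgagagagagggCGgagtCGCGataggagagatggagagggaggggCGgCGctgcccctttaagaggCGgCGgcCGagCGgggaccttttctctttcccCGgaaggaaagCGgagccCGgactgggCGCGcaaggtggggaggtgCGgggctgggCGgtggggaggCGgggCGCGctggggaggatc
Itga5: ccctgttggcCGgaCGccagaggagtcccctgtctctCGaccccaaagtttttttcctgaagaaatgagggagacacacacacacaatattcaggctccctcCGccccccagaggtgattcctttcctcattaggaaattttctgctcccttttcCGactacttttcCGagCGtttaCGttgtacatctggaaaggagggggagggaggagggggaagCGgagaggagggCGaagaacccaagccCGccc
Itgb7: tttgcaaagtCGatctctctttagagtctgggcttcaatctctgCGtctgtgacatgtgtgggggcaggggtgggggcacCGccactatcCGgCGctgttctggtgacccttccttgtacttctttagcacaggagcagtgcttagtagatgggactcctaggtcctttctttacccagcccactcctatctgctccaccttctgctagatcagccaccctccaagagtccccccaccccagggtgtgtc
Lama2: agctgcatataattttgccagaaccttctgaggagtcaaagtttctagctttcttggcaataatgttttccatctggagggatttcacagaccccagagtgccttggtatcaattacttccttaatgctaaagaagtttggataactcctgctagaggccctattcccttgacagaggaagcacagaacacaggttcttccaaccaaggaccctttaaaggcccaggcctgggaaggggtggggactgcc
The windows lie at chr8:128685404-128685653 on the plus strand for Itgb1, and on the minus strand at chr11:95076715-95076964 for Itga3, chr15:103366792-103367041 for Itga5, chr15:102231936-102232185 for Itgb7 and chr10:27616943-27617192 for Lama2. The Lama2 window falls inside the span that the GENCODE annotation gives the gene, and the Itga3 and Itgb7 windows shown overlap the spans of their genes in part. Itga3 has another window in the table, at chr11:95069199-95069448 on the minus strand, with 50.8% G and C and 5 CG dinucleotides, which is not printed. Itgb1 and the Itga3 window shown have 68% and 67.6% G and C with 21 and 22 CG dinucleotides, where the median over all 32851 windows of the table was 52.4% and 6. Itga5 has 11 CG dinucleotides, Itgb7 has 5 and Lama2 has 0, so the called genes do not share one base composition. The table held 26 windows for 23 of the members. The letters TGANTCA, the binding site of the AP-1 family to which Jdp2 belongs, were searched on both strands and occur in 1 of the 26 windows, that of Itgax, against 6.75% of all windows. AAGGTCA, the core site of Esrrb, occurs in 0 of the 26 against 4.08% of all windows.

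Among beta chains, Itgb1 held the largest share of summed TPM on every day, and it fell early. Itgb1 (chromosome 8, 128685654 to 128733200 on GRCm38) stood at 1759 and 1351 CPM in replicates 1 and 2 at D0, 750 and 704 at D1, 646 and 536 at D3, 376 and 390 at D5 and 353 and 319 at D7. Both D7 libraries lie below every library of D0 and D1. The change from D0 to D7 was -2.21 on the log2 scale (SE 0.28, adjusted p = 0.000605), and leaving out any 1 library kept the adjusted p between 0.000274 and 0.0106. Itgb3, which pairs with alphaV as a receptor for vitronectin and other RGD proteins, had 49.9 and 58.4 CPM at D0 and 7.18 and 7.88 CPM at D7, and between them 16.7 and 39.8 at D1, 4.68 and 20.9 at D3 and 3.62 and 7.73 at D5. It fell by 2.85 on the log2 scale (SE 0.66, adjusted p = 0.0127). That call was lost without D0 replicate 1 (0.0528), D0 replicate 2 (0.0649), D7 replicate 1 (0.108) or D7 replicate 2 (0.0578). Itgb5, another alphaV partner, had 143 and 177 CPM at D0, 74.6 and 69 at D1, 65 and 76.7 at D3, 57 and 108 at D5 and 60.3 and 82.1 at D7. Its change of -1.18 (SE 0.34, adjusted p = 0.0351) was the smallest among the members called lower, and the D0 and D7 libraries do not overlap. The Itgb5 call was lost without D0 replicate 1 (0.101), D0 replicate 2 (0.208), D1 replicate 1 (0.0595), D1 replicate 2 (0.0592), D3 replicate 1 (0.0565), D7 replicate 1 (0.253) or D7 replicate 2 (0.0847). The other 2 alphaV partners, Itgb6 and Itgb8, held too few counts to be tested, with 7 and 99 counts over the 10 libraries.

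The RGD-binding alpha chains, whose ligands such as fibronectin carry the tripeptide RGD, were the most abundant alpha class at D0. Itga5 (chromosome 15, 103344286 to 103366763), the alpha chain of the main fibronectin receptor, had 554 and 604 CPM at D0, 129 and 309 at D1, 51.8 and 151 at D3, 51.7 and 82.7 at D5 and 73.7 and 93.3 at D7. It fell by 2.80 on the log2 scale to D7 (SE 0.54, adjusted p = 0.00524), a call that was lost without D7 replicate 1 (0.0603). Itgav (chromosome 2, 83724397 to 83806916), the partner of several beta chains, had 409 and 389 CPM at D0, 232 and 264 at D1, 71.4 and 227 at D3, 99.8 and 57.2 at D5 and 92.5 and 122 at D7. At D3 the replicates lie farther apart than at the other days. The Itgav change from D0 to D7 was -1.90 (SE 0.48, adjusted p = 0.0192), and the call was lost without D0 replicate 1 (0.0913), D0 replicate 2 (0.0769), D7 replicate 1 (0.15) or D7 replicate 2 (0.0666). Itga8, a receptor chain for nephronectin, had 15.7 and 10.5 CPM at D0, 37.1 and 27 at D1, and between 9.07 and 22.4 in the libraries of D3 to D7, with an adjusted p of 0.813 for D7 against D0. Its D1 libraries were the highest. Itga2b, the platelet chain, had 44 counts over the 10 libraries and was not tested.

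Among the laminin-binding alpha chains, Itga3 fell within the first day and Itga6 had the higher mean TPM from then on. Itga3 (chromosome 11, 95044474 to 95076801), which binds laminins with the alpha5 chain, had 428 and 641 CPM at D0, 66.3 and 124 at D1, 61.7 and 87.9 at D3, 50.7 and 89.7 at D5 and 58.1 and 58.5 at D7. All 8 libraries from D1 on lie below both D0 libraries. The change to D7 was -3.19 (SE 0.42, adjusted p = 0.000687), and that from D0 to D1 alone was -2.50 (SE 0.41, adjusted p = 0.00593). The D1 call was lost without D0 replicate 2 (0.0538) or D1 replicate 1 (0.0768). Itga6 (chromosome 2, 71745616 to 71858416), the chain that pairs with beta1 or beta4, had 39.6 and 75.6 CPM at D0, 117 and 243 at D1, 84.9 and 107 at D3, 122 and 78.9 at D5 and 125 and 105 at D7. Every later library lies above both D0 libraries, but the change of 1.01 to D7 did not pass (SE 0.42, adjusted p = 0.129). With the replicate number as a block it did pass, with a change of 1.07 (adjusted p = 0.0466). Without a count filter it passed too (1.05, adjusted p = 0.0438), but not in DESeq2 (adjusted p = 0.11). The block also called Itga6 higher at D1, by 1.64 (adjusted p = 0.0136). At D1 Itga6 passed in DESeq2 (1.63, adjusted p = 0.00728) and without a count filter (1.67, adjusted p = 0.000446). In limma on log2(TPM + 1) it did not pass at D1 (1.57, adjusted p = 0.111). As a share of the summed TPM of the 3 laminin-binding alpha chains, Itga3 went from 86.3% ± 1.26 (SD, n = 2) at D0 to 24.9% ± 4.08 at D7. Itga6 made up 11.4% at D0, 71.1% ± 0.549 at D1 and 72.4% ± 5.19 at D7. The shares were not tested. Itga7, the muscle chain of this class, ranged from 2.13 to 10.1 CPM (adjusted p = 0.444). Itgb4, the beta chain of hemidesmosomes, ranged from 2.94 to 12.8 CPM, with a D7 against D0 change of 1.59 that did not pass (adjusted p = 0.148). Keratinocyte markers summed to no more than 5.48 CPM in any library.

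Of the collagen-binding alpha chains, both tested members were lower at D7. Itga11 (chromosome 9, 62677826 to 62783982), a receptor chain for fibrillar collagen that is typical of fibroblasts, had 135 and 115 CPM at D0, 118 and 87.5 at D1, 98.3 and 127 at D3, 58.2 and 79.6 at D5 and 26.5 and 32.9 at D7. Its levels at D3 still overlapped those of D0. The change to D7 was -2.08 against D0 (SE 0.32, adjusted p = 0.00146) and -1.93 against D3 (SE 0.31, adjusted p = 0.0132). The call against D3 was lost without D3 replicate 1 (0.0543), D3 replicate 2 (0.109), D7 replicate 1 (0.136) or D7 replicate 2 (0.0556). Itga1, a receptor chain for collagen IV, had 39.6 and 36.7 CPM at D0, 27.4 and 12.1 at D1, 18.7 and 17.1 at D3, 18.6 and 16.2 at D5 and 13.3 and 11.8 at D7. It fell by 1.59 on the log2 scale (SE 0.40, adjusted p = 0.0195), a call lost without D0 replicate 1 (0.118), D0 replicate 2 (0.0882), D7 replicate 1 (0.115) or D7 replicate 2 (0.111), and in limma on log2(TPM + 1) (0.126). The Itga1 span holds the gene Pelo on the same strand, and how the counting divided their reads was not given in the sources used here. Itga2 and Itga10 had 12 and 46 counts over the 10 libraries and were not tested.

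Itga4 and Itga9, which bind fibronectin and VCAM1 among others, did not pass at D7. Itga9 had 24.5 and 21.7 CPM at D0, 10 and 10.7 at D1, 9.66 and 7.45 at D3, 6.52 and 7.73 at D5 and 14.1 and 8.54 at D7 (log2 change -0.99 against D0, adjusted p = 0.136). Itga4 ranged from 2.24 to 12.2 CPM, with its highest library at D0 (adjusted p = 0.242). The chains that pair in leukocytes were near the limit of detection, apart from Itgb7. Itgad, Itgae, Itgal, Itgam, Itgax and Itgb2 had 2 to 48 counts over the 10 libraries and were not tested. Itgb7 (chromosome 15, 102215995 to 102231944), which pairs with alpha4 or alphaE in lymphocytes, had 0.489 and 0 CPM at D0, 0.913 and 0 at D1, 1.76 and 1.49 at D3, 9.9 and 5.41 at D5 and 7.18 and 3.29 at D7. The D0 libraries pooled held 1 count and the D7 libraries 38, a ratio of 21 after scaling by library size, with a 95% interval of 3.55 to 851 that covers counting error only. The fitted change was 4.02 (SE 1.20, adjusted p = 0.0413). The call was lost without D0 replicate 1 (0.133), D0 replicate 2 (0.201), D3 replicate 1 (0.0627), D3 replicate 2 (0.0633), D7 replicate 1 (0.278) or D7 replicate 2 (0.063), and in DESeq2 (0.109). Without D0 replicate 1 the fitted change was 6.78. Its usual partners stayed low, with Itga4 at 5 and 3.94 CPM at D7 and Itgae at 13 counts in all libraries together. The 8 leukocyte markers summed to 16.5 to 25 CPM at D0 and 9.86 to 12 CPM at D7, and neither of the 2 that were tested was called.

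**Figure D2:**
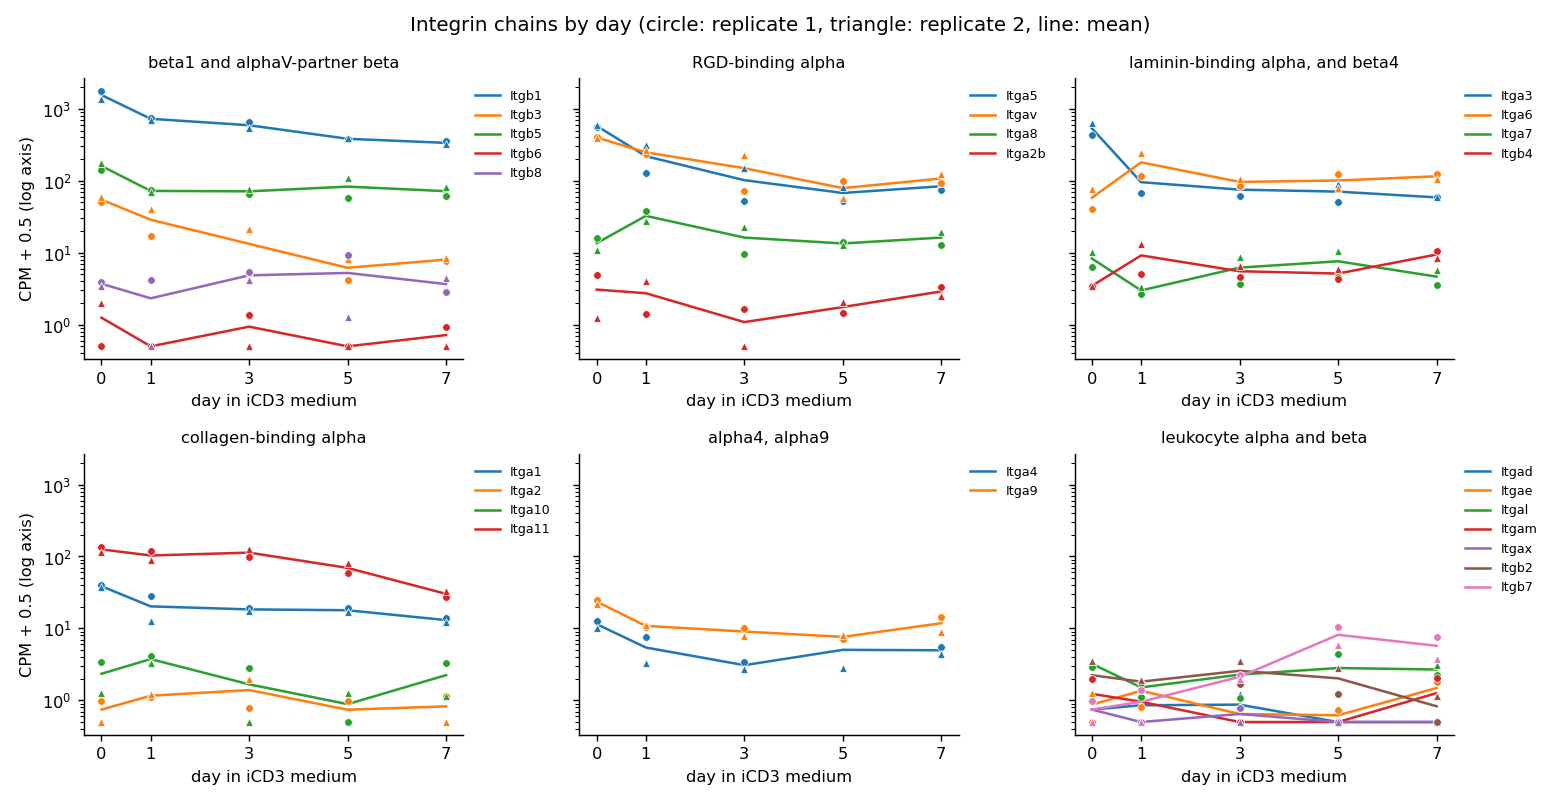
CPM plus 0.5 on a log axis against the day in iCD3 medium for the 26 integrin genes by class, with circles for replicate 1, triangles for replicate 2 and lines for the day's mean. Itgb1 runs from 1759 and 1351 CPM at D0 to 353 and 319 at D7, and the lines of Itga3 and Itga6 cross between D0 and D1 on this CPM scale.

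In edgeR, the laminin alpha chains held the largest called change of the members in each direction, Lama1 upwards and Lama2 downwards. In limma on log2(TPM + 1) at D7 against D0, Lama1 still rose most (4.33), while Itga3 (-3.18) fell more than Lama2 (-2.28). Lama1 (chromosome 17, 67697259 to 67822647), the alpha chain of early embryonic basement membranes, had 2.94 and 8.23 CPM at D0, 26.5 and 22.1 at D1, 35.4 and 35 at D3, 214 and 74.2 at D5 and 423 and 201 at D7. In CPM each day from D1 lies above D0, and both D7 libraries lie above both D3 libraries. In TPM the D1 libraries (8.6 and 3.19) overlap those of D0 (0.45 and 6.51). The change to D7 was 5.89 against D0 (SE 0.67, adjusted p = 0.00036). It stood at 5.29 without D0 replicate 1, at 6.75 without D0 replicate 2 and at 5.25 without D7 replicate 1. Against D3 the change was 3.15 (SE 0.55, adjusted p = 0.0152), which did not pass without D3 replicate 1 (0.0853), D3 replicate 2 (0.14) or D7 replicate 1 (0.121; change 2.51). With the replicate number as a block, Lama1 also passed at D1 against D0 (2.22, adjusted p = 0.0288) and at D5 against D3 (1.96, adjusted p = 0.0261). At D1 it passed in DESeq2 (0.0118) and without a count filter (0.000144) too. In limma on log2(TPM + 1) it did not pass at D1 (0.94, adjusted p = 0.675) or at D7 against D3 (2.86, adjusted p = 0.0782). Extraembryonic endoderm, which secretes this chain in the embryo, was looked for by 8 markers. They summed to 106 to 149 CPM at D0, with Ttr and Afp at 0, to 53.3 to 69.3 CPM at D3 and to 147 to 200 CPM at D7. Of the 8, Gata4, Pth1r, Sox7 and Foxa2 were called higher at D7. Sox7 and Foxa2 held 2 and 1 of the list's 415 pooled counts at D0, and 84 and 87 of 1143 at D7, so the D0 sum rests on other markers. The Sox7 and Pth1r calls were lost without any 1 of the D0 or D7 libraries (adjusted p from 0.0734 to 0.154 and from 0.062 to 0.248), and that of Gata4 without D0 replicate 1 (0.143) or D7 replicate 1 (0.148). Without D0 replicate 1 and without D0 replicate 2, the change was 8.33 and 4.01 for Sox7 and 8.05 and 4.66 for Foxa2, and without D0 replicate 2 it was 2.90 for Gata4. Their part in the Lama1 result was not tested.

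Lama2 and Lama4, the alpha chains of muscle and of blood vessel and mesenchymal basement membranes, went down within a day. Lama2 (chromosome 10, 26980036 to 27619758) had 42.6 and 40.4 CPM at D0, 7.61 and 6.4 at D1, 3.51 and 2.24 at D3, 3.86 and 2.32 at D5 and 3.48 and 2.63 at D7. The change was -3.70 at D7 (SE 0.49, adjusted p = 0.000723) and -2.54 at D1 (SE 0.46, adjusted p = 0.0106). Lama4 (chromosome 10, 38965515 to 39110188) had 158 and 95.8 CPM at D0, 45 and 33.4 at D1, 21.4 and 18.6 at D3, 23.2 and 20.9 at D5 and 27.4 and 36.8 at D7. For Lama4 the change was -2.00 at D7 (SE 0.34, adjusted p = 0.00284) and -1.68 at D1 (SE 0.34, adjusted p = 0.018). The D1 call of Lama2 was lost without D0 replicate 1 (0.118), D0 replicate 2 (0.0917), D1 replicate 1 (0.0939) or D1 replicate 2 (0.0777), and that of Lama4 without D0 replicate 1 (0.183), D1 replicate 1 (0.0916) or D1 replicate 2 (0.148). In limma on log2(TPM + 1), Lama4 at D7 had an adjusted p of 0.0578. The 7 endothelial markers, of a cell type that makes Lama4 in vessels, summed to 18.6 to 26.2 CPM at D0, with Tie1 and Sox17 at 0, and to 136 to 149 CPM at D7, where Pecam1 alone gave 419 of the 853 pooled counts. Their part in the Lama4 result was not tested.

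Lama5 (chromosome 2, 180176373 to 180225859), which is widespread in epithelia and in the early embryo, was the most abundant laminin alpha chain throughout. It had 381 and 562 CPM at D0, 758 and 817 at D1, 633 and 780 at D3, 380 and 373 at D5 and 401 and 622 at D7. Its D1 and D3 libraries lie above those of the other days, and D7 against D0 gave a change of 0.12 (adjusted p = 0.841). Lama3, the chain of epidermal basement membranes, had 2.45 and 1.5 CPM at D0, 2.43 and 1.42 at D1, 0.293 and 1.49 at D3, 11.4 and 0 at D5 and 12.8 and 13.8 at D7. The D7 libraries were the highest 2, and the change of 2.68 against D0 did not pass (adjusted p = 0.134). It passed without D5 replicate 1 (0.0318) or D5 replicate 2 (0.0242), whose Lama3 values differ from each other, and without a count filter (0.0229). Against D3, the D7 libraries pooled held 80 counts against 3, a scaled ratio of 20.7 (95% interval 6.85 to 103, counting error only), with an adjusted p of 0.0843. That comparison passed with the replicate block (0.0243), without a count filter (0.00121), and without D5 replicate 1 (0.0177) or D5 replicate 2 (0.0123).

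The beta and gamma chains that most laminin trimers contain showed no called change between D0 and D7. Lamb1 had 525 and 555 CPM at D0, 339 and 444 at D1, 221 and 331 at D3, 261 and 255 at D5 and 469 and 295 at D7 (log2 change -0.50, adjusted p = 0.333). Lamb2 had 122 and 166 CPM at D0, 109 and 117 at D1, 97.4 and 126 at D3, 71.7 and 92 at D5 and 81.1 and 132 at D7 (-0.44, adjusted p = 0.393). Lamc1, the gamma chain of most trimers, had 441 and 534 CPM at D0, 339 and 323 at D1, 168 and 309 at D3, 437 and 223 at D5 and 569 and 497 at D7 (0.13, adjusted p = 0.857). For Lamb1 and Lamc1 the D3 values lay under those of D0, and Lamc1 passed at D7 against D3 with the replicate block (1.17, adjusted p = 0.0344). In that comparison Lamc1 also passed in DESeq2 (1.17, adjusted p = 0.0334) and without a count filter (1.18, adjusted p = 0.0201). It did not pass in limma on log2(TPM + 1) (1.15, adjusted p = 0.118). Lamb3, the epidermal beta chain, had 26 counts over the 10 libraries and was not tested.

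The minor gamma chain Lamc3 was higher at D1 and returned to a few CPM. Lamc3 (chromosome 2, 31887291 to 31946539) had 2.45 and 0.748 CPM at D0, 27.4 and 12.8 at D1, 7.02 and 7.45 at D3, 2.66 and 0.773 at D5 and 6.09 and 5.91 at D7. It was the only member called higher at D1 against D0, with a change of 3.54 (SE 0.75, adjusted p = 0.0224). The Lamc3 call was lost without D0 replicate 1 (0.104; change 4.70), D0 replicate 2 (0.188) or D1 replicate 1 (0.226; change 2.87).

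**Figure D3:**
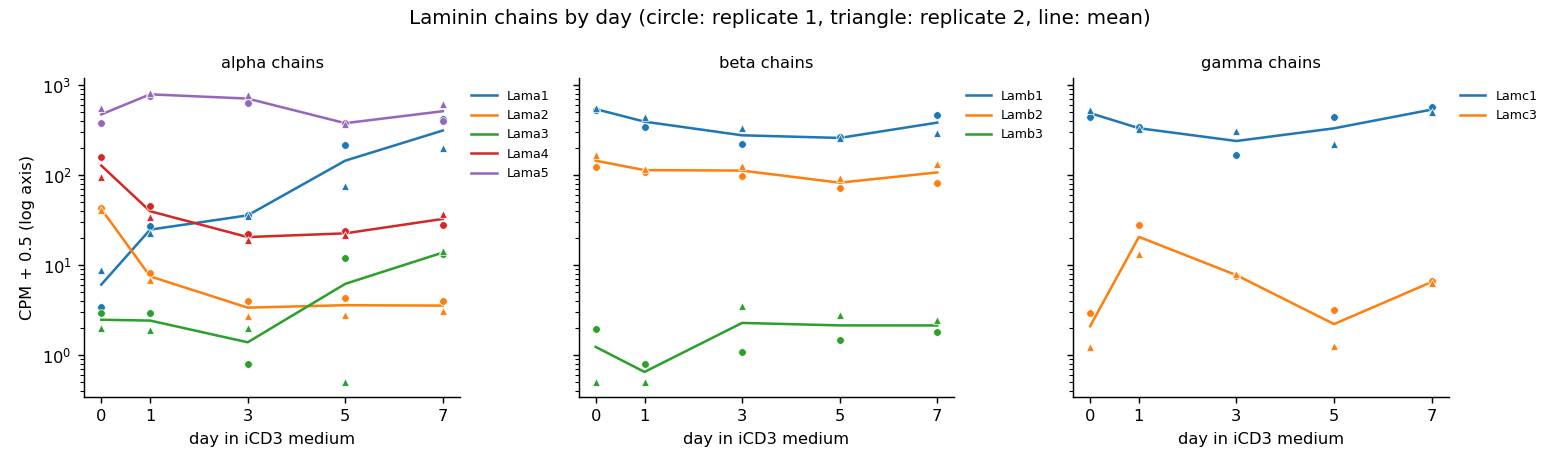
CPM plus 0.5 on a log axis against the day in iCD3 medium for 10 of the 11 laminin genes, with circles for replicate 1, triangles for replicate 2 and lines for the day's mean. Lama1 climbs from 2.94 and 8.23 CPM at D0 to 423 and 201 at D7 while Lama2 and Lama4 go down, and Lamb1, Lamb2 and Lamc1 lie between 71.7 and 569 CPM in all libraries.

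Shares of summed TPM place the chains of a class beside each other per transcript length. Among integrin alpha chains, Itga5, Itga3 and Itgav made up 31.9% ± 4.85, 27.4% ± 4.74 and 25.6% ± 1.82 at D0 (SD, n = 2). Itga5 was above Itgav in both D0 libraries (201 and 206 against 138 and 195 TPM). The place of Itga3 differed between them (137 and 223 TPM). At D7, Itga6 had the largest mean at 31.5% ± 6.95, followed by Itgav at 23.1% ± 5.16 and Itga5 at 17.2% ± 2.56. In D7 replicate 2, Itga6 and Itgav were level at 44.4 and 44.6 TPM. Itga11 took 5.85% ± 1.8 at D0, 15.6% ± 4.67 at D3 and 5.27% ± 0.825 at D7. Among beta chains Itgb1 held 84.6% ± 4.68 at D0 and 72.3% ± 4.09 at D7, the largest share on both days. Among laminin alpha chains, Lama5 took 70.8% ± 5.42 at D0, 92.5% ± 0.957 at D3 and 60.7% ± 7.67 at D7. Lama1 made up 2.28% ± 2.88 at D0 and 31.7% ± 8.21 at D7, while Lama4 went from 20.6% ± 7.68 to 5.4%. These shares are descriptions of the deposited TPM values and were not tested.

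**Figure D4:**
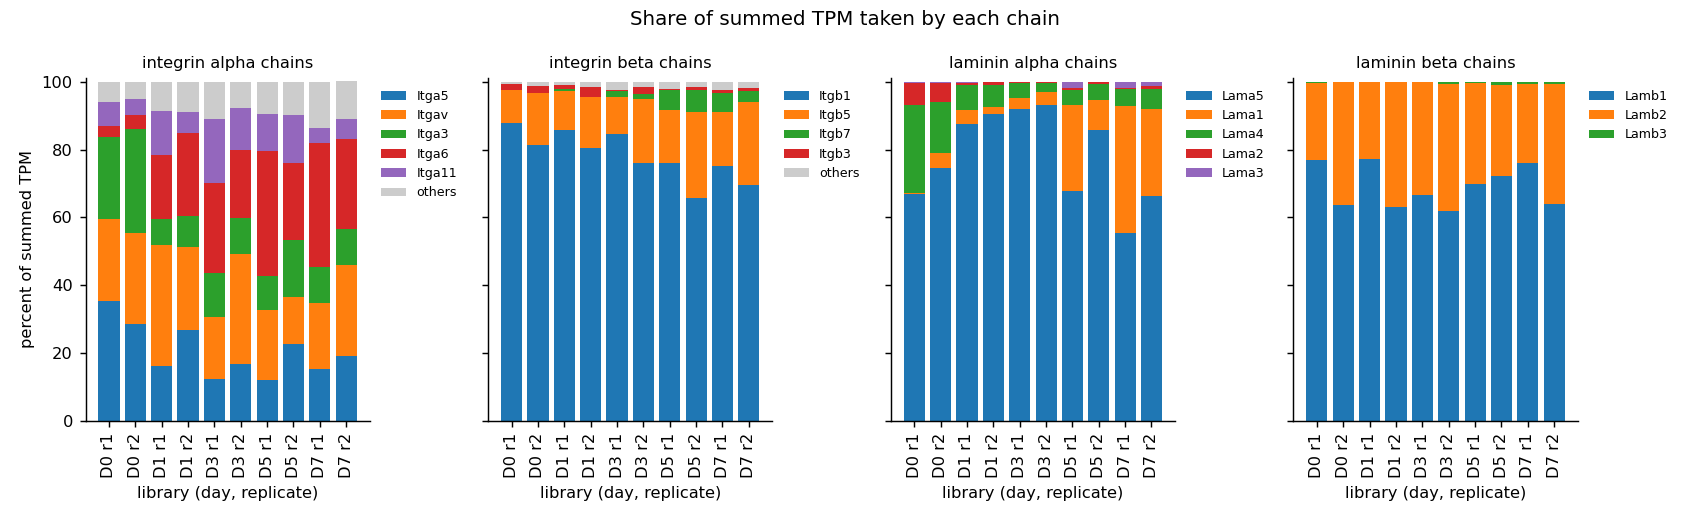
Percent of the summed TPM of a chain class (vertical axis) taken by each gene, as stacked bars for the 10 libraries ordered by day. Itga6 takes 3.63% of the integrin alpha chains at D0 and 31.5% at D7, and Lama1 takes 2.28% and 31.7% of the laminin alpha chains.

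Called changes between successive days lay in the first day, and Lama1 and Itga11 changed between D3 and D7. At D1 against D0, 1 member was higher and 4 were lower (Itga3, Itgb1, Lama2 and Lama4), where 2.41% and 2.12% of all genes tested were called higher and lower. Itgb1 fell by 1.10 on the log2 scale in that step (SE 0.27, adjusted p = 0.0443), a call lost without any 1 of the D0, D1, D3 or D7 libraries, with adjusted p-values from 0.056 to 0.301, in limma on log2(TPM + 1) (0.0553) and without a count filter (0.0613). DESeq2 called 5 members lower at D1, Itgb5 added (0.046), and Itga5 passed without a count filter (0.00463). With the replicate block the D1 calls were 4 higher and 6 lower, with Itga6 and Lama1 among the added higher genes. The added lower genes were Itga5 (-1.55, adjusted p = 0.00741) and Itgb5 (-1.12, adjusted p = 0.0153). The 2.41% and 2.12% above are shares of the edgeR fit with the count filter and without the block, not of these other fits. The fibroblast markers summed to 2597 to 3307 CPM at D1 and the smooth muscle markers to 303 to 669 CPM, both under their D0 levels, and their part in the D1 calls was not tested. No member was called at D3 against D1, D5 against D3 or D7 against D5 in edgeR, where 4, 7 and 3 of the 25 tested members had an unadjusted p under 0.05, as did 8.49%, 11.8% and 6.35% of all genes tested. At the adjusted threshold those steps called few genes of any kind, with 0.0549% higher and 0% lower at D3 against D1, 0.0627% higher and 0.00784% lower at D5 against D3, and 0% in both directions at D7 against D5. DESeq2 and the replicate block each called 1 member, Lama1, higher at D5 against D3. Over the longer step from D3 to D7, Lama1 was higher and Itga11 lower, against 3.07% and 2.31% of all genes tested, and the block added Lama3 and Lamc1 as higher and Itgb1 (-0.81, adjusted p = 0.0232) as lower. DESeq2 also called Lamc1 higher and Itgb1 lower (-0.81, adjusted p = 0.0324) in that step. D7 against D0 and D1 against D0 share the D0 libraries, and D7 against D3 shares the D7 libraries with the former.

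The proteins that integrins and laminins work with were followed in 6 lists of 91 genes. At D7 against D0, 83 of these genes were tested, 37 were lower and 2 higher, where 8.71% of all genes tested were lower and 9.15% higher, and 19 of the 39 calls held whichever library was left out. Of the 23 activators and scaffold proteins of focal adhesions, 15 of 20 tested were lower and 0 higher, with a median of -2.26. Csrp1, a LIM protein on actin bundles, fell by 4.14 on the log2 scale (SE 0.63, adjusted p = 0.00155), with a change of -4.77 without D7 replicate 2. Tns1, a tensin that ties beta tails to actin, fell by 3.50 (SE 0.44, adjusted p = 0.000615), and Lpp, a relative of zyxin, by 3.11 (SE 0.40, adjusted p = 0.000625). Of the 20 signalling kinases and adaptors, all tested, 4 were lower and 0 higher, with a median of -0.59. With the block 7 were lower. Nedd9, a scaffold of the Cas family, fell by 2.30 (SE 0.32, adjusted p = 0.000965). Its relative Bcar1 fell by 2.26 (SE 0.62, adjusted p = 0.028), which was lost without D0 replicate 1 (0.0639), D0 replicate 2 (0.149), D7 replicate 1 (0.194) or D7 replicate 2 (0.0639). Shc1, an adaptor to the Ras pathway, fell by 1.12 (SE 0.33, adjusted p = 0.0359), which was lost without D0 replicate 1 (0.129), D0 replicate 2 (0.173), D7 replicate 1 (0.195) or D7 replicate 2 (0.149). Ptk2, which encodes focal adhesion kinase, had a change of -0.12 (adjusted p = 0.81).

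Most called matrix partners of the receptors and of laminin were lower as well. Of 13 basement membrane partners of laminin, 7 were lower and 1 was higher, with a median of -1.44. With the block 3 were higher. Sparc, a collagen-binding matrix protein, fell by 2.26 (SE 0.33, adjusted p = 0.0012). Smoc2 fell by 2.60 (SE 0.58, adjusted p = 0.0108), which was lost without D0 replicate 1 (0.0528), D0 replicate 2 (0.0682) or D7 replicate 1 (0.129; change -2.01). Hspg2, the core protein of perlecan, fell by 2.54 (SE 0.46, adjusted p = 0.00379), which was lost without D7 replicate 1 (0.051). Smoc1, a relative of Smoc2, was the higher gene, at 1.88 (SE 0.51, adjusted p = 0.0271), which was lost without D0 replicate 1 (0.0838), D0 replicate 2 (0.172), D7 replicate 1 (0.126) or D7 replicate 2 (0.0791). Of 16 integrin ligands other than laminins, 8 of 14 tested were lower and 1 was higher, with a median of -2.14, and 8 of these 9 calls held without each library. Thbs1, Tnc and Fbn1, which encode thrombospondin, tenascin and fibrillin, had changes of -6.05, -4.95 and -4.29, with Thbs1 at -6.69 without D7 replicate 2. Fn1, the fibronectin gene, fell by 1.97, a call lost without D7 replicate 1 (0.0783). Spp1, which encodes the RGD protein osteopontin, rose by 2.35 (SE 0.42, adjusted p = 0.00345). The untested ligand genes Vtn and Madcam1 held 27 and 13 pooled counts at D7 against 0 and 1 at D0. For Vtn, which encodes vitronectin, the D7 level was at least 4.97-fold higher than 3 counts over the D0 libraries, and for Madcam1, a ligand of alpha4 with beta7, the ratio was 7.18 (95% interval 1.08 to 305, counting error only).

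Laminin receptors outside the integrin family numbered 12. Of these genes, 10 were tested and 2 were lower, where 17.9% of all genes tested were called in either direction, with a median of -0.32, namely the syndecans Sdc1 (-1.76, SE 0.45, adjusted p = 0.0214) and Sdc2 (-1.04, SE 0.32, adjusted p = 0.0466). The Sdc1 call was lost without D0 replicate 1 (0.0654), D0 replicate 2 (0.123) or D7 replicate 1 (0.182), and that of Sdc2 without any 1 of the D0, D1, D3 or D7 libraries (0.0548 to 0.329). Dag1, which encodes dystroglycan, had a change of 0.03. Of the 7 hemidesmosome and tetraspanin partners, 6 were tested and 1 was lower, with 3 under the block. It was Plec, the linker plectin, which fell by 2.11 (SE 0.40, adjusted p = 0.00512) and did not pass without D7 replicate 1 (0.0695). Col17a1, a hemidesmosome collagen, was not tested and held 14 counts at D7 and 3 at D0, a ratio of 2.58 (95% interval 0.719 to 14).

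**Figure D5:**
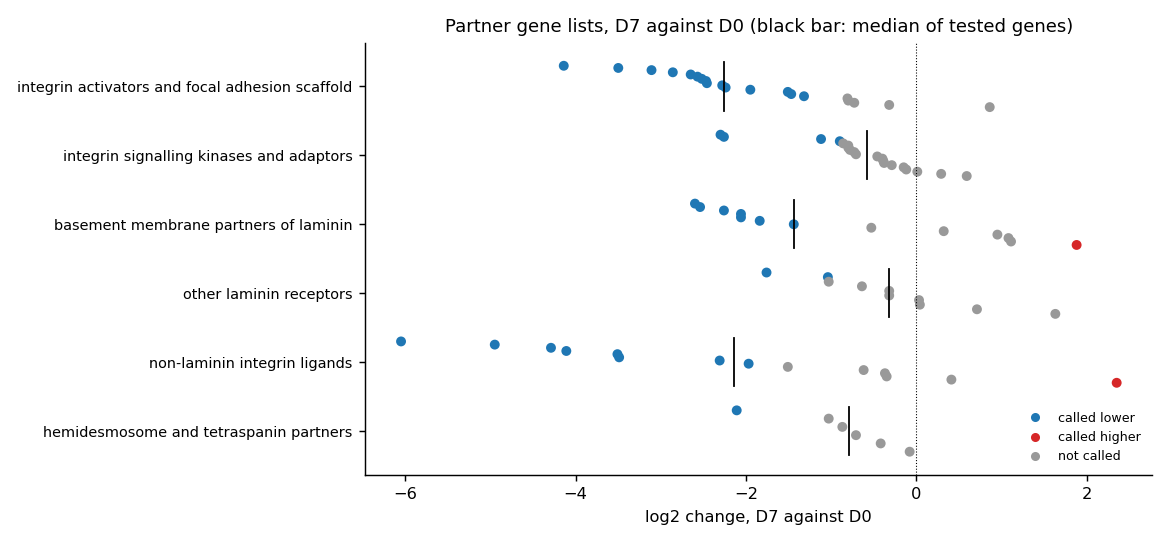
Log2 change between D7 and D0 (horizontal axis) of the tested genes of 6 partner lists, 1 point per gene, with called genes in colour and a black bar at each list's median. The focal adhesion scaffold list has its median at -2.26 and the list of other laminin receptors at -0.32.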

How the data were processed

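mRNA libraries made from total RNA, 10 in all and 2 for each of 5 days, were sequenced on an Illumina NextSeq500, per the labels. The submitters' processing notes name bcl2fastq, Bowtie2, RSEM and mm10. Their settings, strand use and annotation were not given in the sources used here. RSEM tables as deposited give for each gene an expected count, a TPM and an FPKM, per the file headers. The deposited FPKM values were not used. Identifiers matched GENCODE M21 for 54723 of 54752 genes.

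Expected counts were rounded and tested in edgeR 4.0.16 (R 4.3.3) with TMM scaling, filterByExpr at a minimum count of 10, 1 term per day over all 10 libraries, the quasi-likelihood F test and Benjamini-Hochberg adjustment over 12752 genes. Each SE is the size of the log2 change over the root of its F value. CPM values use TMM-scaled totals. The deposited TPM values gave sums and shares between genes. Of the members, 20 overlap another annotated gene, and without strand such reads may be split. The differences between replicates 1 and 2 correlated over genes in all 10 pairs of days (0.273 to 0.436). Whether a shared experiment or a technical difference between the replicates lies behind this was not tested. Replicates 1 and 2 also differ in depth and in RSEM's mean fragment length (136 to 159 against 199 to 204 bases), and each day holds 1 of each. The labels name both a Vazyme VAHTS and an Illumina TruSeq kit without saying which libraries each made. Replicates differed by more than sampling noise (chi-square per gene 7.16 to 20.84).

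Alternatives were RLE scaling, DESeq2 1.42.0, no count filter, a minimum count of 30, the replicate number as a block, limma 3.58.1 on log2(TPM + 1), counts over annotated length for shares, and each library left out in turn. The members, lists and tests were chosen with earlier results of these data known. Members called in any comparison or with a mean of at least 10 TPM on a day are named with values, as are up to 3 genes per partner list with the largest called changes. Of the members, 1 is not reported here, though counts include it. The fit was tested on simulated data.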

Additional observations from a re-analysis of the deposited data

How the results depend on the processing

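For the members and comparisons with a call in any setting, no change called in either of the fits compared reversed direction. Sign changes where neither fit had a call were not counted as reversals. Of the recomputed changes, 394 kept their side of the threshold, 60 lost the call and 38 gained one. The number of members higher at D7 than at D0 (2) was 1 in DESeq2, 4 without a count filter, 1 at a minimum count of 30, 4 with the replicate block, and 1 to 3 with a library left out, and the number lower (10) was 8 in limma on TPM and 5 to 10 with a library left out. Among the partner lists, the genes higher at D7 (2) were 4 in DESeq2, 5 without a filter, 5 with the replicate block and 1 to 5 with a library left out, and those lower (37) were 20 to 43. At D1 against D0, the higher count (1) was 3 in DESeq2, 3 without a filter, 0 at a minimum of 30, 4 with the block and 0 to 3 with a library left out, and the lower count (4) was 5 in DESeq2, 6 with the block, 2 in limma on TPM and 0 to 5 with a library left out. At D5 against D3, the higher count (0) was 1 in DESeq2, without a filter and with the block, and 0 to 1 with a library left out. At D7 against D3, the higher count (1) was 2 in DESeq2, 3 without a filter, 3 with the block, 0 in limma on TPM and 0 to 3 with a library left out, and the lower count (1) was 2 in DESeq2, 2 with the block and 0 to 1 with a library left out. The shares of all genes called in these alternative fits are not given, so their counts have no share to stand beside. Beside the changes given with each gene, the replicate block ended no call of a member. With counts over annotated length, the Itga6 share of the laminin-binding alpha chains at D0 was 11.3% instead of 11.4%. The cause of these differences was not tested, apart from fewer libraries or genes in the fits that leave them out. There were 2 libraries a day, and 3 counts were worth up to 2.26 CPM on unscaled totals. Changes of chains at a few CPM, such as Itgb7, Lama3 and Lamc3, therefore rest on few reads. The D7 level of Lama2 also rests on few, with 16 and 4 counts in replicates 1 and 2.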
